A study of Mus musculus with 2 samples.

Results

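The extracellular matrix genes described here were the collagens, the laminins and the glycoproteins and proteoglycans deposited with them, measured at E10.5 in the mouse brain with and without functional *Plzf*. They were chosen by gene symbol alone, as every collagen alpha chain, laminin chain, fibrillin, fibulin and nidogen on the array together with *Fn1*, *Sparc*, *Hspg2*, *Agrn*, *Tnc*, *Lox* and *Postn*. This gave 70 genes of the 37071 gene names with values, read by 159 probes. Of the 70 genes, 57 were well above background in all 4 channels, against 23283 of all genes, and 28 passed the signal filter, against 10600 of all genes. A gene passed this filter when, in both genotypes on both arrays, it had a processed signal above 200 and a signal-to-noise ratio of 5 or more.

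RNA was compared on 2 Agilent arrays with 2 dyes each. On each array a wild type sample, labeled C57BL/6 by strain, carried Cy3, and a luxoid sample carried Cy5. Luxoid is a mutation of *Plzf* (gene symbol *Zbtb16*) that arose by itself and cuts the protein short, and the embryos used were homozygous (*Plzf* lu/lu). The sample labels name the tissue as brain and the methods as forebrain and midbrain, and the number of embryos behind each sample is not given in the sources used here. The dyes were not exchanged, so a dye effect on a probe and an effect of the genotype cannot be told apart, and both arrays lay on 1 slide. Every ratio below is *Plzf* lu/lu over wild type on the same array. With 2 arrays the precision of each ratio is limited, and p-values measure only the spread between these 2 arrays. The signal of *Zbtb16* was 433 in wild type and 172 in *Plzf* lu/lu on array 1, and 546 and 211 on array 2. Among forebrain and midbrain markers, 9 of 10 were well above background (*En1* was not), and among hindbrain markers 3 of 9 were. The tissue also held RNA of the cell types around the neural tube, since 18 of 18 endothelial markers, 9 of 9 pericyte and mural cell markers, 17 of 18 mesenchyme and neural crest markers, 12 of 12 surface ectoderm markers and 9 of 9 erythroid markers were well above background. In such a mixed tissue, fewer cells of a type and less RNA per cell cannot be told apart.

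Matrix proteins form 2 kinds of scaffold. The basement membrane is a thin sheet under epithelia, around vessels and on the outer surface of the brain, built from a laminin network and a collagen IV network that nidogens and the proteoglycans perlecan and agrin join together. The interstitial matrix between mesenchymal cells is made of fibrils, in which the fibrillar collagens, fibronectin and the fibrillin microfibrils are the main parts. In the early forebrain, radial neuroepithelial cells attach their basal ends to the basement membrane that the meningeal mesenchyme and the neuroepithelium lay down together.

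Most matrix chains are made together with a partner. Collagen IV chains are encoded in head-to-head gene pairs, and *Col4a1* and *Col4a2* are the pair that passed the filter. Their RefSeq start sites lie on opposite strands of chromosome 8, 21 bases apart, and their promoter windows (250 bases before the start and 50 after it, GRCm38.p6) share 78 bases. The windows of *Col4a5* and *Col4a6*, whose start sites are 1343 bases apart on the X chromosome, share 0 bases. The collagen IV promoters are shown because the pair shares them, and those of *Col1a2* and *Col3a1* to set a GC-rich and an AT-rich window of fibrillar genes beside them. Each is written 5′ to 3′ on the strand of its gene, *Col4a1* at chr8:11312777-11313076 (minus), *Col4a2* at chr8:11312555-11312854 (plus), *Col1a2* at chr6:4505368-4505667 (plus) and *Col3a1* at chr1:45311288-45311587 (plus). Capitals mark matches to GGGCGG (the GC box), CCAAT and TATAAA on either strand.
Col4a1: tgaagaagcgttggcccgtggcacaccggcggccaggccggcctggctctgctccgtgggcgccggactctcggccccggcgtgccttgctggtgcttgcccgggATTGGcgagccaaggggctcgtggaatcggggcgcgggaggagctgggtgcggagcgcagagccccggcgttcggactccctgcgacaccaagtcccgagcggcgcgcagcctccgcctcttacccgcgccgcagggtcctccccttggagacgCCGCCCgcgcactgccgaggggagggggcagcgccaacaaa
Col4a2: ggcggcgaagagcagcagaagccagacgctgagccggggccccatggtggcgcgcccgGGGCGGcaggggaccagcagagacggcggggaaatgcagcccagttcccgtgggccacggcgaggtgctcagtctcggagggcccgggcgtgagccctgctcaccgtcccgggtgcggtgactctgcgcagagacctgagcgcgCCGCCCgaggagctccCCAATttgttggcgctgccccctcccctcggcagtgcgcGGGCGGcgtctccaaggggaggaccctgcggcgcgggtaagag
Col1a2: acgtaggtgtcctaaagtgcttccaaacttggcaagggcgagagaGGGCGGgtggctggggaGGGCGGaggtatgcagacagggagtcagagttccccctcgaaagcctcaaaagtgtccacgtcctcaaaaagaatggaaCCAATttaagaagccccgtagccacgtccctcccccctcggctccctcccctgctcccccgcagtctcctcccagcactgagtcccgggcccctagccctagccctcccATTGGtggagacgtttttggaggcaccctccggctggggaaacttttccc
Col3a1: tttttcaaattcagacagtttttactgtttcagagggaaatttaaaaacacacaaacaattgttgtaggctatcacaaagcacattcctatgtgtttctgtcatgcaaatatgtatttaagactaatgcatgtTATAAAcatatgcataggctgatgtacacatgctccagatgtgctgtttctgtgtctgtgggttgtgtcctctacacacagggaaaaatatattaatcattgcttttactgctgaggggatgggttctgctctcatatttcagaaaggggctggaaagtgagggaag
The *Col4a1* and *Col4a2* windows held 74% and 73.7% G and C, that of *Col1a2* 61% and that of *Col3a1* 37.7%. RefSeq windows were found for 51 of the 70 genes (60 windows, since some genes have several starts). GGGCGG was present in 60% of these windows and in 35.7% of all 32851 windows, CCAAT in 30% and 37.4%, and TATAAA in 13.3% and 13.6%. The matrix windows were also richer in G and C, with a median of 59.8% against 52.7% in all windows, and the motif shares were not adjusted for it. For the basement membrane genes 0 of 18 windows held TATAAA, and for the fibrillar matrix genes 3 of 11 did. These are descriptions of the windows and no test was made.

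By the brightest probe of each gene, none of the 28 matrix genes that passed the filter differed by more than 1.3-fold the same way on each array. The counts were 0 higher in *Plzf* lu/lu, where 2.58% of all 10600 genes tested were, and 0 lower, where 0.736% were. In limma, with p-values adjusted by Benjamini-Hochberg over all 10600 genes, 0 of the 28 had an adjusted p under 0.05, a level reached by 0.0283% of all genes (3 genes). At an unadjusted p under 0.05 the limma counts were 4 higher and 6 lower of 28, or 14.3% and 21.4%, beside 15.7% and 12% of all genes. At an adjusted p under 0.1 limma gave 6 of the 28 (21.4%), with 12.2% of all genes at that level. These were *Agrn*, *Fn1*, *Col22a1* and *Fbln2*, which were higher, and *Fbn1* and *Fbn2*, which were lower. None of them held this level with the deposited log2 table (limma adjusted p of 0.198 to 0.205). The same was true over all genes well above background (0.253 to 0.276). When the arrays were instead centred on the median of all spots after normexp background correction, the median of all genes tested became 0.55, with *Agrn* (1), *Fn1* (0.89), *Col22a1* (0.86) and *Fbln2* (0.83) above it and *Fbn2* (0.22) and *Fbn1* (0.07) below it. The mean log2 ratios of the 28 genes ran from -0.42 to 0.49, a range of 0.748-fold to 1.4-fold. The median of these means was -0.08 (array medians 0.03 on array 1 and -0.21 on array 2), and that of all genes tested was 0.01 (0.02 and 0). The absence of calls does not show that the levels were equal, since the limma 95% confidence interval lay within 1.3-fold for 7 of the 28 genes (25%), against 62.3% of all genes. These 7 were *Lamb2*, *Col1a2*, *Col2a1*, *Col9a1*, *Col16a1*, *Sparc* and *Col26a1*. The plot of ratios by gene shows how far apart the 2 arrays were for many of them.

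**Figure D1:**
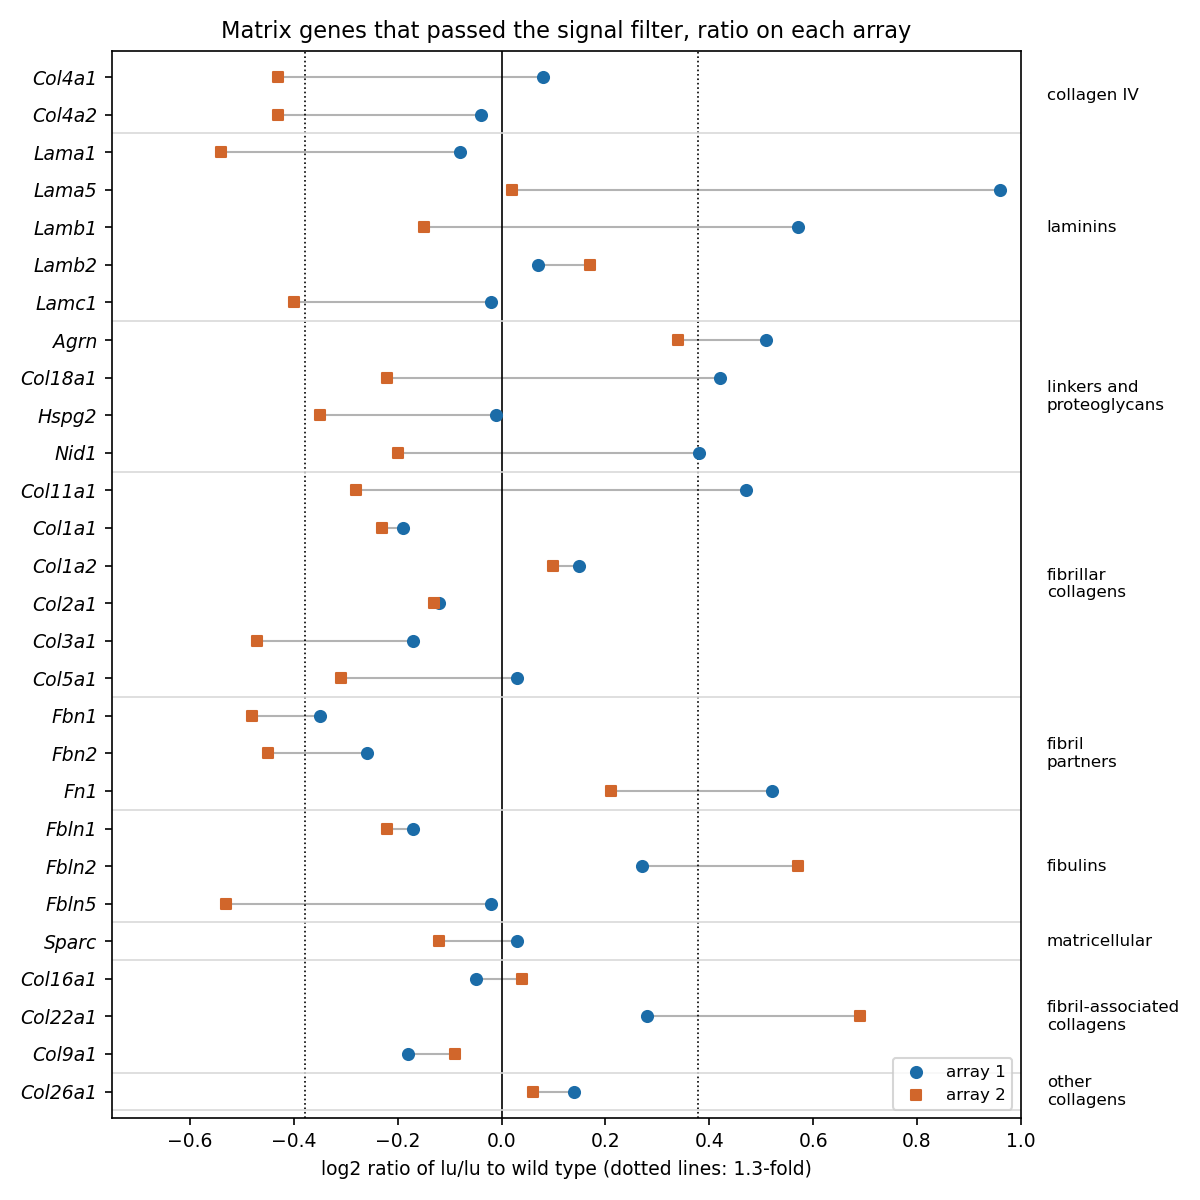
Log2 ratio, *Plzf* lu/lu over wild type, of the 28 matrix genes that passed the signal filter, with array 1 as circles, array 2 as squares and a line joining the arrays of 1 gene. Genes are grouped by role and the dotted lines mark 1.3-fold in either direction. In no gene do both points lie beyond the same dotted line.

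Collagen IV, the network collagen of basement membranes, was measured above the filter by 2 of its 6 genes. *Col4a1* had a processed signal of 1132 in wild type and 1199 in *Plzf* lu/lu on array 1, and of 1279 and 949 on array 2. *Col4a2*, its partner in the same triple helix, read 1238 and 1204 on array 1, and 1303 and 970 on array 2. The pair thus moved alike on each array, close to no difference on array 1 (log2 0.08 and -0.04) and lower on array 2 (-0.43 for both). Because the arrays differed, neither mean was separated from 0 in limma. It was -0.17 for *Col4a1* (SD 0.36, n = 2 arrays, limma 95% interval -0.5 to 0.15, limma adjusted p = 0.421) and -0.23 for *Col4a2* (SD 0.27, interval -0.51 to 0.04, limma adjusted p = 0.232). The other pair that was above background, *Col4a5* and *Col4a6*, also stayed together. *Col4a5* read 153 and 173 on array 1 and 151 and 147 on array 2, and *Col4a6* 152 and 185, then 152 and 141. *Col4a3* and *Col4a4*, the chains of the mature kidney filter, were not well above background.

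Of the 11 laminin genes 5 passed, and their chains gave different patterns. *Lama1* encodes the alpha chain of the first embryonic laminin, and *Lama5* the alpha chain that is most widespread later. *Lama1* read 2756 in wild type and 2610 in *Plzf* lu/lu on array 1, and 3165 and 2182 on array 2. Both *Plzf* lu/lu values lay below both wild type values, and the log2 ratio averaged -0.31 (SD 0.32, n = 2 arrays, limma adjusted p = 0.176). Here and below, overlap compares values across arrays that were not normalized to each other, and its share over all genes was not counted. *Lama5* read 816 and 1584 on array 1, and 1026 and 1039 on array 2. The difference was seen on array 1, with a log2 ratio of 0.96 against 0.02 on array 2, which was the widest gap between arrays among the 28 genes (mean 0.49, SD 0.66, limma adjusted p = 0.202). The chains that join these alpha chains in a trimer did not share 1 pattern. *Lamb1* read 1725 and 2554 on array 1 but 2060 and 1854 on array 2, so its ratio changed sign between arrays (0.57 and -0.15, limma adjusted p = 0.452). *Lamc1*, the gamma chain of most laminins, read 1221 and 1206 on array 1, and 1189 and 900 on array 2 (log2 -0.02 and -0.4, limma adjusted p = 0.269). *Lamb2*, the beta chain of muscle and kidney basement membranes, was slightly higher on both arrays, with 291 and 306, then 263 and 297 (mean 0.12, SD 0.07, limma adjusted p = 0.339). Over the laminins that passed, the median of the gene means was 0.12, which lies above the medians of 0.07 on array 1 and -0.15 on array 2.

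Of the 6 genes whose proteins tie the basement membrane networks together 4 passed, and 1 of them was higher in *Plzf* lu/lu on both arrays. *Agrn* encodes agrin, a heparan sulfate proteoglycan that binds laminin and is best known for organizing the neuromuscular junction. Its signal was 3255 in wild type and 4622 in *Plzf* lu/lu on array 1, and 3617 and 4584 on array 2. Both *Plzf* lu/lu values lay above both wild type values, by 1.42-fold on array 1 and 1.27-fold on array 2, the second just short of 1.3-fold. On the log2 scale the mean was 0.42 (SD 0.12, n = 2 arrays, limma 95% interval 0.22 to 0.63, limma adjusted p = 0.0633). A second, dim *Agrn* probe with signals from 22.6 to 24.5 gave -0.05 and -0.11, and the mean over both probes was 0.17 (limma adjusted p = 0.329). *Hspg2*, which encodes the proteoglycan perlecan, read 871 and 866 on array 1, and 859 and 676 on array 2. *Col18a1*, the collagen that carries endostatin at its end, read 4210 and 5646 on array 1, and 4855 and 4161 on array 2. Neither followed *Agrn* on both arrays, with log2 ratios of -0.01 and -0.35 for *Hspg2* (limma adjusted p = 0.307) and of 0.42 and -0.22 for *Col18a1* (limma adjusted p = 0.695). The plot of signals sets these genes beside the fibrillar ones.

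**Figure D2:**
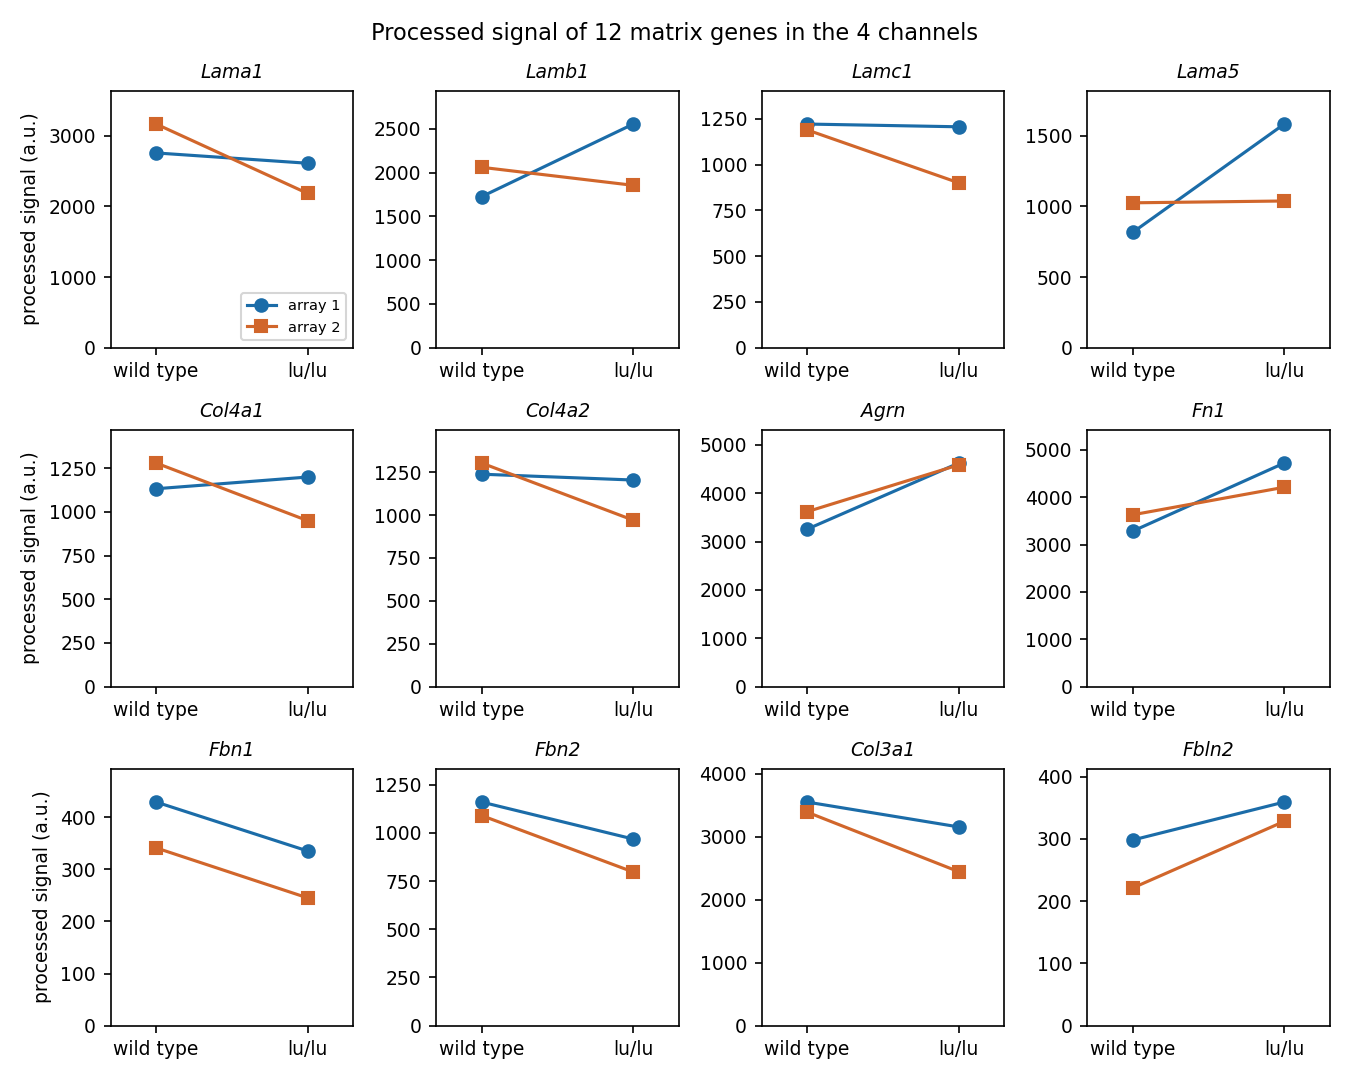
Processed signal, in arbitrary units and from 0, of 12 matrix genes in wild type and *Plzf* lu/lu, with 1 line per array (circles, array 1, and squares, array 2). The lines of *Agrn*, *Fn1* and *Fbln2* slope up and those of *Fbn1*, *Fbn2* and *Col3a1* slope down on both arrays, whereas those of *Lamb1* and *Col4a1* run in opposite directions.

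Of the 11 fibrillar collagen genes 6 passed, with a median of the gene means of -0.13 (array medians -0.05 on array 1 and -0.25 on array 2). *Col1a1* and *Col1a2* encode the chains of collagen I, the main collagen of bone, skin and tendon. *Col1a1* read 1301 in wild type and 1139 in *Plzf* lu/lu on array 1, and 996 and 850 on array 2. *Col1a2* read 5266 and 5861 on array 1, and 3808 and 4070 on array 2. By their brightest probes the chains of this trimer had opposite signs on both arrays, with a mean of -0.21 for *Col1a1* (SD 0.03, n = 2 arrays, limma adjusted p = 0.148) and of 0.13 for *Col1a2* (SD 0.04, limma adjusted p = 0.323). The signs did not hold over the other *Col1a1* probes that passed, which gave log2 ratios of 0.04 and -0.07, and of 0.05 and 0.03. In both genes the values of the genotypes overlapped, because the wild type values themselves differed between arrays, which the authors did not normalize to each other. *Col3a1*, the collagen of distensible tissues such as vessel walls, read 3548 and 3153 on array 1, and 3388 and 2443 on array 2. It was lower in *Plzf* lu/lu on both arrays without overlap (log2 -0.17 and -0.47, mean -0.32, SD 0.21, limma 95% interval -0.56 to -0.08, limma adjusted p = 0.114). *Col2a1*, the collagen of cartilage and notochord, gave nearly the same small ratio on both arrays, with 1739 and 1599, then 1424 and 1302 (log2 -0.12 and -0.13, limma adjusted p = 0.318). *Col11a1*, which pairs with collagen II in thin fibrils, did not. It read 407 and 565 on array 1 and 421 and 347 on array 2 (log2 0.47 and -0.28, limma adjusted p = 0.737).

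The fibrillins, which form the microfibrils that carry elastin and bind latent growth factors, were lower in *Plzf* lu/lu by their brightest probes. *Fbn1* read 429 in wild type and 335 in *Plzf* lu/lu on array 1, and 341 and 245 on array 2. *Fbn2*, the more embryonic of the pair, read 1160 and 968 on array 1, and 1090 and 797 on array 2. In both genes the *Plzf* lu/lu values lay below the wild type values on each array and across arrays, by a mean log2 of -0.42 for *Fbn1* (SD 0.09, n = 2 arrays, limma 95% interval -0.61 to -0.22, limma adjusted p = 0.0609) and of -0.36 for *Fbn2* (SD 0.14, interval -0.57 to -0.15, limma adjusted p = 0.0838). Their other probes were less uniform. A second *Fbn2* probe read 707 and 514, then 558 and 394, and was the only probe of any matrix gene that passed the filter and was beyond 1.3-fold in 1 direction on both arrays (log2 -0.46 and -0.5), while another *Fbn2* probe was not well above background. The paper lists *Fbn2* among its genes lower beyond 1.3-fold, and the second probe had folds of 0.727 and 0.707. A second *Fbn1* probe, below the filter at 155 and 199, then 128 and 148, was well above background and had ratios above 0 (0.36 and 0.22), so the direction of *Fbn1* depends on the probe. The mean over all probes of a gene was 0.36 for *Fbn1* and -0.12 for *Fbn2* (limma adjusted p = 0.298 and 0.608), in each case with 1 probe included that was not well above background.

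By the brightest probes, fibronectin, the adhesive glycoprotein on which other fibrils are laid, had ratios of the opposite sign to the fibrillins. *Fn1* read 3283 in wild type and 4722 in *Plzf* lu/lu on array 1, and 3629 and 4211 on array 2. The *Plzf* lu/lu values lay above the wild type values without overlap, with log2 ratios of 0.52 and 0.21 (mean 0.37, SD 0.22, n = 2 arrays, limma 95% interval 0.12 to 0.62, limma adjusted p = 0.096). Dimmer *Fn1* probes, also well above background, gave 0.4 and 0.16, 0.48 and 0.19, and -0.17 and 0.13. *Lox*, the enzyme that crosslinks collagen and elastin, and *Postn*, a collagen-binding protein of fibroblasts, were well above background but did not pass the filter.

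Of the 4 fibulins, which bridge elastic fibers and basement membranes, 3 passed. *Fbln2* read 298 and 359 on array 1, and 221 and 328 on array 2. It was higher in *Plzf* lu/lu without overlap, by 1.2-fold and 1.49-fold (mean log2 0.42, SD 0.21, n = 2 arrays, limma adjusted p = 0.082). *Fbln1* read 2742 and 2440, then 2316 and 1982, and *Fbln5*, needed for elastic fiber assembly, 417 and 411, then 377 and 261. Both had a mean below 0, of -0.2 for *Fbln1* (SD 0.04, limma adjusted p = 0.166) and of -0.28 for *Fbln5* (SD 0.36, limma adjusted p = 0.231). Of the 9 collagens that decorate fibrils 3 passed. *Col22a1*, a collagen of tissue junctions, read 260 and 316 on array 1, and 245 and 395 on array 2. Its mean was, with that of *Lama5*, the highest of the 28 genes (0.49, SD 0.29, limma 95% interval 0.21 to 0.77, limma adjusted p = 0.0815), although the mean over its probes was -0.01. *Col9a1*, a cartilage collagen, read 748 and 663, then 647 and 608 (mean -0.13, limma adjusted p = 0.306). *Col16a1* read 253 and 245, then 232 and 239, which is no difference in either direction (mean 0, SD 0.06, limma 95% interval -0.19 to 0.19, limma adjusted p = 0.998). *Sparc*, a collagen-binding protein that modulates cell contact with matrix, read 15049 and 15389 on array 1, and 14671 and 13533 on array 2 (log2 0.03 and -0.12, limma adjusted p = 0.756). *Col26a1* read 3348 and 3681, then 2829 and 2953 (log2 0.14 and 0.06, limma adjusted p = 0.425). Of the remaining genes, *Tnc*, the tenascin of developing nerve and tendon, was not well above background. Of the 12 beaded, network and other collagens *Col26a1* alone passed the filter, and of the 4 transmembrane collagens none did.

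Set against each other, the basement membrane genes had a higher median ratio than the fibrillar matrix genes, but the gap was close to 0 on 1 of the 2 arrays. Each set median is that of the gene means, which need not lie between the medians of the arrays. The basement membrane set (collagen IV, laminins, linkers and proteoglycans) had 23 genes, of which 11 passed, with a median of 0.09 (0.08 on array 1, -0.22 on array 2). The fibrillar set (fibrillar collagens, fibronectin, fibrillins, *Lox* and *Postn*) had 16 genes, of which 9 passed, with a median of -0.14 (-0.12 on array 1, -0.28 on array 2). The median of the basement membrane set was 0.2 above that of the fibrillar set on array 1 and 0.05 above it on array 2. By the gene means it was 0.23 above it, a wider gap than on either array. In the basement membrane set 3 genes were above 0 on both arrays, 4 below 0 on both and 4 of mixed sign. In the fibrillar set these numbers were 2, 5 and 2, and over all 10600 genes tested 3949, 3749 and 2902. Mixed signs thus made up 36.4% and 22.2% of the sets, beside 27.4% of all genes. The sign of the basement membrane median was not stable. Collagen IV and the laminins alone gave -0.17 (0.07 on array 1, -0.4 on array 2), which is 0.03 below the fibrillar set. The median of the whole set was 0 with the trend on probe GC content removed, 0 over all genes well above background and -0.02 with normexp centred on the passing genes. No test was applied to these medians because genes are not replicates. The genes at limma adjusted p under 0.1, a level not held with the deposited log2 table, came from both sets. They were *Agrn* from the basement membrane and *Fn1*, *Fbn1* and *Fbn2* from the fibrillar set.

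**Figure D3:**
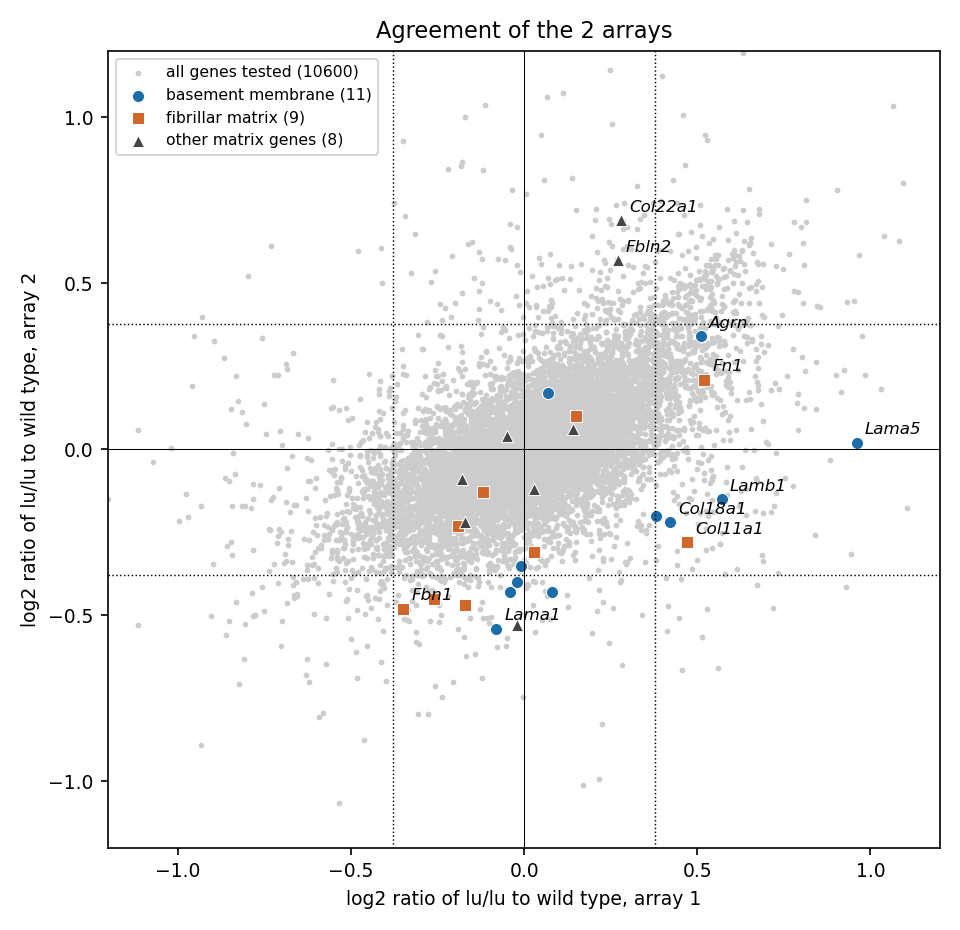
Log2 ratio, *Plzf* lu/lu over wild type, on array 1 (x axis) and array 2 (y axis) for all 10600 genes tested (grey, with 32 genes outside the plotted range) and for the matrix genes that passed (circles, basement membrane, squares, fibrillar matrix, triangles, other matrix genes). Dotted lines mark 1.3-fold, and no matrix gene lies beyond them in the upper right or lower left corner.

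The 2 arrays disagreed over matrix genes in 1 direction. In 23 of the 28 genes (82.1%) the ratio was higher on array 1 than on array 2, as it was in 53.6% of all genes tested. This held for 10 of 11 basement membrane genes and for 9 of 9 fibrillar genes, and for none of the 3 fibril-decorating collagens. On array 1 alone 6 of the 28 genes (21.4%) were higher beyond 1.3-fold and 0 lower, beside 8.25% and 5.58% of all genes. On array 2 alone 2 (7.14%) were higher and 8 (28.6%) lower, beside 4.5% and 1.96% of all genes. Opposite signs on the arrays were seen in 8 of 28 genes (28.6%), close to the 27.4% of all genes. Across all genes tested, which are not independent of each other, the ratios of the arrays correlated with a Pearson r of 0.553 and a Spearman rho of 0.601. The genes with the widest gap were *Lama5*, *Col11a1* and *Lamb1*, with differences between arrays of 0.94, 0.75 and 0.72 on the log2 scale.

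Markers of the cell types that lay matrix down also differed between arrays. The summed signal of the 12 surface ectoderm markers was 10907 in wild type and 15895 in *Plzf* lu/lu on array 1, and 15101 and 12006 on array 2. It was thus higher in *Plzf* lu/lu on array 1 and lower on array 2. The sum was carried by *Krt18*, *Krt8* and *Perp*, and *Cdh1* and *Epcam* had the same pair of signs, whereas *Grhl3* (0.63 and 0.79), *Krt5* (0.2 and 0.29) and *Trp63* (0.03 and 0.16) were above 0 on both arrays and *Krt14* was -0.01 and 0.53. The summed signal of the 18 endothelial markers was lower in *Plzf* lu/lu on both arrays, with a range of 7703 to 8757 in wild type and of 5902 to 6441 in *Plzf* lu/lu. The brightest of them was *Egfl7* (3690 and 3300, then 4140 and 3110). Of the 6 endothelial genes that passed the filter, *Emcn*, *Icam2* and *Plvap* were lower by more than 1.3-fold on both arrays, beside 0.736% of all genes tested. The median of the 6 was -0.39 on array 1 and -0.71 on array 2. Not all markers were lower on both arrays, since *Sox17* was higher (log2 0.4 and 0.25), *Pecam1* was 0.04 and -0.34 and *Cd34* 0 and -0.75. All 18 were well above background in every channel, among them *Cdh5* at 127 and 104, then 126 and 84.1. Pericyte and mural cell markers summed to 11148 to 13190 in wild type and 9564 to 10838 in *Plzf* lu/lu (median of 5 passing genes 0.02 and -0.3, with *Tagln* lower beyond 1.3-fold on both arrays). The lower sum was carried by *Acta2* (-0.39 and -0.21) and *Tagln* (-0.44 and -0.48), and the dim *Abcc9* and *Rgs5* were also below 0 on both arrays. *Notch3* was above 0 on both (0.02 and 0.09), and *Pdgfrb*, *Cspg4*, *Anpep* and *Kcnj8* had mixed signs. Mesenchyme and neural crest markers summed to 18249 in wild type and 20560 in *Plzf* lu/lu on array 1, and to 17879 and 17567 on array 2. *Meox1* was the 1 marker of 18 not well above background. The median of the 13 mesenchyme and neural crest genes that passed was 0.23 on array 1 and -0.01 on array 2, so it also was higher on array 1. Erythroid markers summed to 588238 and 312754 on array 1, and to 238920 and 293821 on array 2. Neuroepithelial and neuronal markers were, like the erythroid ones, higher on array 2, with medians over 9 passing genes each of 0.14 and 0.14 on array 1 and of 0.44 and 0.72 on array 2. All 8 macrophage markers were well above background, with 2 that passed. The part of these shifts in the matrix ratios was not tested.

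**Figure D4:**
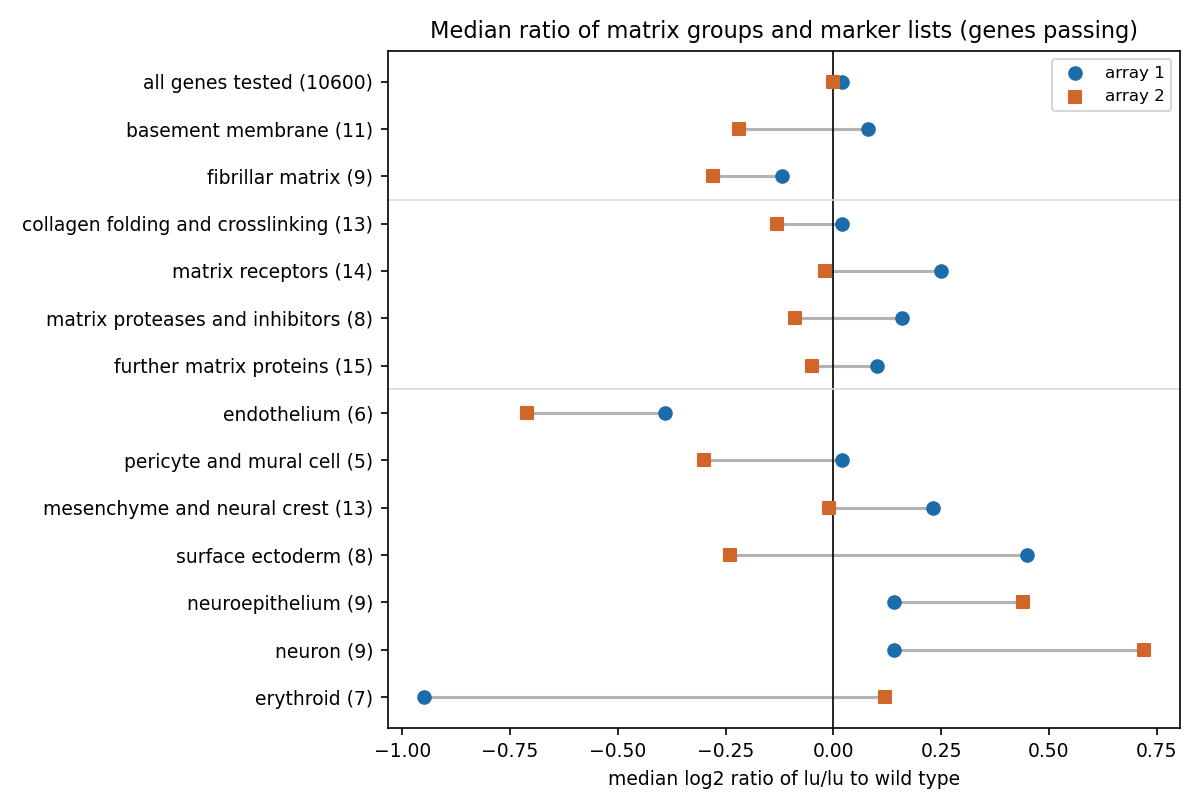
Median log2 ratio, *Plzf* lu/lu over wild type, on array 1 (circles) and array 2 (squares) for the matrix sets, for other matrix-related lists and for cell type markers, with the number of genes that passed the filter in parentheses. The endothelial median lies below 0 on both arrays. All medians lie further right on array 1 than on array 2, except those of the neuroepithelium, neuron and erythroid markers.

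Several matrix genes were read by more than 1 probe, which compares probes and not animals. Of the 159 probes 39 passed the filter, and 9 genes had at least 2 such probes. In these 9 genes the probes had the same sign in 4 genes on array 1 and in 7 on array 2, with a median largest gap between probe means of 0.09 and a largest gap of 0.43 on the log2 scale. The second probes of *Fn1*, *Lamb1* and *Sparc* are shown because their genome interval is longer than their 60 bases, as that of a probe across a splice junction, and lies apart from the brightest probe. They lie at chr1:71637422-71639659, chr12:32012684-32014030 and chr11:55209449-55212106 in build mm9.
Fn1: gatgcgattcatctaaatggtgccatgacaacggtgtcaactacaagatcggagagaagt
Lamb1: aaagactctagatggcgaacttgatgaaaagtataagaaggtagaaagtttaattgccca
Sparc: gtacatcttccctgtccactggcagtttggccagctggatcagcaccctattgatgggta
For *Fn1* the junction probe gave log2 ratios of 0.4 and 0.16, near the 0.52 and 0.21 of the brightest probe. For *Lamb1* it gave 0.51 and -0.15, which repeats the disagreement of the arrays with a second sequence. For *Sparc* it gave -0.39 and -0.36, where the brightest probe gave 0.03 and -0.12. The *Sparc* probes thus differed from each other by more than the arrays did. Among the others, another *Fbln1* probe gave 0.46 and 0.01 where the brightest gave -0.17 and -0.22.

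Below the signal filter, larger ratios were found in dim genes. Among the 57 genes well above background, 2 were higher and 2 lower beyond 1.3-fold on both arrays, where 2.52% and 2.07% of all 23283 such genes were. The genes named next were picked out after their values were seen. *Lama4*, the alpha chain of vessel basement membranes, read 82.4 in wild type and 49.4 in *Plzf* lu/lu on array 1, and 68.9 and 39.6 on array 2. By the brightest probe its log2 ratios of -0.74 and -0.8 were the largest agreeing decrease among matrix genes well above background. They had the sign of the endothelial medians given above, though not of every endothelial marker. Dimmer *Lama4* probes, also well above background, gave smaller ratios of -0.24 and -0.29, and of -0.01 and -0.43. *Col8a2*, a network collagen of the cornea, read 97 and 142, then 101 and 142, and *Col11a2* read 17.4 and 12.8, then 17.6 and 13.5. In limma over all genes well above background none of the 57 had an adjusted p under 0.05, with 14 at an unadjusted p under 0.05 (24.6%), beside 17% of all such genes.

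Genes that act on the matrix were read from lists of enzymes, receptors, proteases and further matrix proteins. For the counts below, 2.58% of all genes tested were higher beyond 1.3-fold on both arrays and 0.736% lower. Of the 25 genes for collagen folding and crosslinking 13 passed, and 0 were beyond 1.3-fold in 1 direction on both arrays (median -0.08). *Serpinh1*, the chaperone of collagen, read 4540 and 4940 on array 1, and 4760 and 3900 on array 2, and so was higher on array 1 and lower on array 2 like *Lamb1* and *Col18a1*. Of 26 matrix receptors 14 passed, with 1 higher and 1 lower. The one higher was *Itgb8*, an integrin chain of neuroepithelial cells that read 204 and 277, then 238 and 398 (limma adjusted p = 0.0541). The one lower was *Bcam*, a receptor for the laminin chain of *Lama5*, which read 373 and 257, then 482 and 230 (limma adjusted p = 0.055). *Itgb1*, the beta chain shared by most laminin and collagen receptors, read 2700 and 3010, then 2580 and 2600. Of 17 proteases and inhibitors 8 passed, and the protease *Htra1* was higher, with 208 and 407, then 260 and 390 (limma adjusted p = 0.051). Of 42 further matrix proteins 15 passed and 2 were lower beyond 1.3-fold on both arrays. These were *Sparcl1*, a relative of *Sparc*, at 1120 and 691, then 839 and 557, and *Tgfbi*, a matrix protein induced by TGF-beta, at 1480 and 997, then 1060 and 747 (limma adjusted p = 0.051 for both).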

How the data were processed

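The authors hybridized E10.5 brain RNA of both genotypes to 2 arrays with 2 dyes. Their scans went through Feature Extraction 10.7.3.1, with background subtraction and, array by array, dye normalization by LOWESS on rank-consistent probes. They deposited for each spot the processed and raw signal intensity and a log10 ratio (Cy5 over Cy3), which another deposited table repeats as log2 to within 0.005. Probe positions, given with the deposited arrays, are in build mm9. RefSeq promoters are in GRCm38.p6. The arrays held 59305 gene spots, with 0 saturated.

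Control spots and outlier spots (137 and 126 per array) were left out, log2 values of repeated spots were averaged, and the probe with the highest mean signal stood for a gene. Signal-to-noise was taken as mean spot signal minus median local background, over the SD of the background pixels. A gene was counted as higher or lower when each array was beyond 1.3-fold that way. Log2 ratios were fitted with limma 3.58.1 in R 4.3.3 (intercept, eBayes), and p-values were adjusted by the Benjamini-Hochberg method over the 10600 genes that passed. The fit had 5.63 degrees of freedom in all, most of them pooled across genes. The procedure was tested on simulated data. Figures and sequences were made in Python 3.11.15 (matplotlib 3.10.9, pandas 2.3.3, numpy 2.4.6), and files were read in R by data.table (version 1.17.8).

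The genes, their role lists and the marker lists were chosen with earlier results of these data known. The genes described singly were those beyond 1.3-fold on both arrays, the 3 brightest passing genes of each role list, the chains that assemble with any of them and the 3 with the largest difference between arrays. This rule named 39 genes, and *Col8a2*, *Lox*, *Postn* and *Tnc* are named outside it. A gene that is counted among those below the signal filter is not reported here. Alternatives were normexp background correction (offset 50) with loess or median centring, the deposited log2 table, other filters, the mean over probes, removal of the trend on probe GC content (lowess span 0.67), a threshold of 1.5-fold, eBayes with trend, the channels without pairing by array, each array alone and other set definitions. Each probe on its own, normexp centred on the passing genes and the set difference without the linkers were chosen after seeing the data.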

Additional observations from a re-analysis of the deposited data

How the results depend on the processing

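The count of 0 matrix genes higher beyond 1.3-fold on both arrays moved to 10 when normexp was followed by centring on the median of all spots, which set the median of all genes tested to 0.55 and called 6698 of them. It was 2 with genes well above background (3.51%, beside 2.52% of all such genes). With the filter passed in at least 1 channel of each array it was 1 (3.33%, beside 2.78%), and without a filter 2 (2.86%, beside 4.57%). The count of 0 lower moved to 2 with genes well above background (3.51%, beside 2.07% of all such genes). Without a filter it was 4 (5.71%, beside 5.86%), namely *Col11a2*, *Col14a1*, *Lama4* and *Tnc*, of which *Col14a1* and *Tnc* were not well above background. It was 1 with the mean over probes (*Col3a1*, beside 112 of all genes), with the GC trend removed (*Fbn2*, beside 80), with normexp centred on the passing genes (*Fbn1*, beside 120) and with each probe on its own (*Fbn2*). Each array alone gave 2 to 6 higher and 0 to 8 lower (of all genes, 477 to 875 and 208 to 592). The limma count of 0 at adjusted p under 0.05 became 23 (82.1%, beside 91% of all genes) with that centring, 3 of 28 (beside 14.3%) with normexp centred on the passing genes (*Agrn*, *Fbn1* and *Fbn2*) and 1 (3.57%, beside 3.71%) with eBayes with trend (*Agrn*, adjusted p = 0.0425). Without the pairing of the channels by array (no replicate block) it was 0, beside 0 of all genes, with a lowest limma adjusted p of 0.0632 among the matrix genes. Both genotypes lay on each array, so the pairing comes from the design.

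The median of the basement membrane set was 0.54 with the centring on all spots, -0.17 for collagen IV and the laminins alone, 0 with the GC trend removed and with genes well above background, -0.02 with normexp centred on the passing genes, and -0.22 to 0.08 on single arrays. That of the fibrillar set was 0.37 with that centring and -0.28 to -0.12 on single arrays. Their difference was 0.05 to 0.2 on single arrays and -0.03 for collagen IV and the laminins alone (0.19 on array 1, -0.13 on array 2), a setting chosen after seeing the data. With that centring the mean log2 ratio turned positive for *Col16a1* (0.43), *Col1a1* (0.34), *Col2a1* (0.42), *Col3a1* (0.28), *Col4a1* (0.4), *Col4a2* (0.32), *Col9a1* (0.37), *Fbln1* (0.35), *Fbln5* (0.19), *Fbn1* (0.07), *Fbn2* (0.22), *Hspg2* (0.35), *Lama1* (0.23), *Lamc1* (0.33) and *Sparc* (0.68), and all but *Sparc* were below the median of all genes under it. The mean over probes turned *Col11a1* (-0.04), *Col1a2* (-0.05), *Col22a1* (-0.01), *Fbn1* (0.36) and *Lamc1* (0.11). Normexp centred on the passing genes turned *Col11a1* (-0.01), *Lamb2* (-0.02) and *Sparc* (0.13), and *Col16a1* was 0.04 with normexp and loess and 0.03 with the GC trend removed. On single arrays *Col11a1* was -0.28 to 0.47, *Col16a1* -0.05 to 0.04, *Col18a1* -0.22 to 0.42, *Col4a1* -0.43 to 0.08, *Lamb1* -0.15 to 0.57 and *Sparc* -0.12 to 0.03. The cause of these shifts was not tested.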
